A study of Silurus meridionalis with 18 samples.

Results

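Taste receptors and the taste channel gene trpm5 were followed across 18 tissues of adult southern catfish (Silurus meridionalis). The genes were 2 fixed gene models, tas1r3 (C0J45_16866) and trpm5 (C0J45_21838), and every other model whose protein name holds the words "taste receptor". This gave 14 of the 25390 gene models in the expression table. They were 5 type 1 receptors, 8 type 2 receptors and trpm5.

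Taste cells sit in taste buds, and catfish carry taste buds outside the mouth, with many on the barbels. Type 1 receptors pair up to detect amino acids in fish (and sugars and amino acids in mammals), and type 2 receptors detect bitter compounds. In mammals both act through a G protein and phospholipase C, which frees calcium through an inositol trisphosphate receptor. The calcium opens the cation channel TRPM5, and the cell then releases ATP to the taste nerve through CALHM channels.

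The tissues were Maxillary_barbel and Mandibular_barbel (the whiskers of the upper and lower jaw), set against Brain, Gill, Head_kidney, Heart, Intestine, Kidney, Liver, Muscle, Olfactory_bulb, Ovary, Pancreas, Retina, Skin, Spleen, Telecephlon and Testis. All came from adult fish with no treatment named, and polyadenylated RNA was sequenced as 1 library per tissue. The number of fish per library and any pooling are not stated in the labels. Sex is given only by the Ovary and Testis labels, and nothing says which of the other tissues came from the same fish. With 1 library per tissue there was no spread between replicates, so no test was run, and neighbours in an order of levels cannot be called different. Levels are FPKM as deposited, that is, fragments scaled by the length of the model and the depth of the library, so levels can be compared between genes.

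Depth, estimated from the steps between low values, was 20200000 to 22700000 fragments in the barbels, Intestine, Olfactory_bulb, Retina and Telecephlon, 9530000 in Muscle, 6360000 in Skin and 48200000 to 51200000 in the other 10 libraries. If the step was 1 read and not 1 fragment, each is 2 times too high. Keratinocyte markers, taken as a sum, were high in the barbel libraries. The 15 models of the keratinocyte list summed to 29047 FPKM in Maxillary_barbel and 24458 FPKM in Mandibular_barbel, against 3270 FPKM in Skin and 7243 FPKM in Gill. Such a sum can rest on a few high models. The list's median log2 ratio of the lower barbel over the highest other tissue was -2.83, against -2.42 over all genes. The Skin library also held muscle RNA, with the muscle list at 0.502 FPKM in Maxillary_barbel and 0.973 FPKM in Mandibular_barbel, against 2175 FPKM in Skin. Its part in the values against Skin was not tested. Intestinal epithelium markers were at 89.5 and 106 FPKM in the barbels, against 1468 FPKM in Intestine.

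The type 1 receptor tas1r3 was a barbel gene in these libraries. It encodes the shared partner that pairs with the other type 1 receptors. The model lies at chr19:1543381-1550538 on the plus strand and has 8 coding exons and 2676 coding bases. It stood at 1.52 FPKM in Maxillary_barbel and 3.20 FPKM in Mandibular_barbel. The next levels were 0.274 FPKM in Brain and 0.118 FPKM in Retina. Gill had 0.0261 FPKM, and the other 13 libraries had less than that. It was listed at 0 in 6 of them, namely Intestine, Muscle, Ovary, Pancreas, Skin and Testis. Both barbels were above every other tissue, and together they held 90.2% of the FPKM summed over the 18 libraries. The barbel values correspond to about 92.5 and 173 fragments, against 35.4 in Brain. In Skin, the shallowest library, 3 fragments of this gene would have read 0.176 FPKM, below either barbel.

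The 3 tas1r2-type receptors that stand in tandem on chromosome 9 were highest in different tissues, the first in Mandibular_barbel and the other two in Retina. In mammals TAS1R2 joins TAS1R3 to form the sweet receptor, while fish receptors of this type respond to amino acids. The models all lie on the plus strand within chr9:17108262-17125586, have 6 coding exons each and carry the same protein name. In their order along the chromosome they are C0J45_08998, C0J45_tas1r2.2 and C0J45_08999, with gaps of 2916 and 2154 bases.

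The first model, C0J45_08998, was at 0.484 FPKM in Maxillary_barbel and 2.15 FPKM in Mandibular_barbel, followed by 0.284 FPKM in Retina. The other 15 libraries lay between 0 and 0.0581 FPKM, with Skin, Muscle, Ovary and Pancreas at 0. The middle model, C0J45_tas1r2.2, was at 0.368 FPKM in Maxillary_barbel and 0.609 FPKM in Mandibular_barbel, but its highest level was 0.717 FPKM in Retina. The other 15 libraries lay at or under 0.0217 FPKM, and 10 were listed at 0. So the middle model was high in the same 3 libraries as the first, with Retina at the top and not a barbel.

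The last model of the tandem, C0J45_08999, was at 0.0187 FPKM in Maxillary_barbel and 0.0211 FPKM in Mandibular_barbel, which is about 1 fragment each. It reached 0.196 FPKM, or about 10.2 fragments, in Retina, and 14 libraries were at 0. Within the summed FPKM of the 3 models, C0J45_08998 made up 55.6% in Maxillary_barbel and 77.3% in Mandibular_barbel, against 23.7% in Retina. C0J45_tas1r2.2 made up 42.2% and 21.9% in the same barbels, against 59.9% in Retina. Tandem copies can share reads, so how the sum was divided between them is uncertain. The sum itself was 0.871 FPKM in Maxillary_barbel and 2.78 FPKM in Mandibular_barbel, against 1.20 FPKM in Retina and at most 0.0971 FPKM in the other 15 libraries.

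A further tas1r2-type receptor, C0J45_14565 (chr16:9314892-9319254, minus strand, 7 coding exons), was an intestinal gene and not a barbel gene. It had 0.0465 FPKM in Maxillary_barbel and 0.0625 FPKM in Mandibular_barbel, about 3 fragments each at most, against 1.33 FPKM and about 70.7 fragments in Intestine. The other 15 libraries were at or under 0.0311 FPKM. The other type 1 receptors were at or near 0 in Intestine, where only C0J45_08998 was above 0, at 0.00123 FPKM. Intestine and Retina were the only other tissues with a summed type 1 level over 1 FPKM. That sum was 2.44 FPKM in Maxillary_barbel and 6.04 FPKM in Mandibular_barbel, against 1.33 FPKM in Intestine and 1.31 FPKM in Retina.

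**Figure D1:**
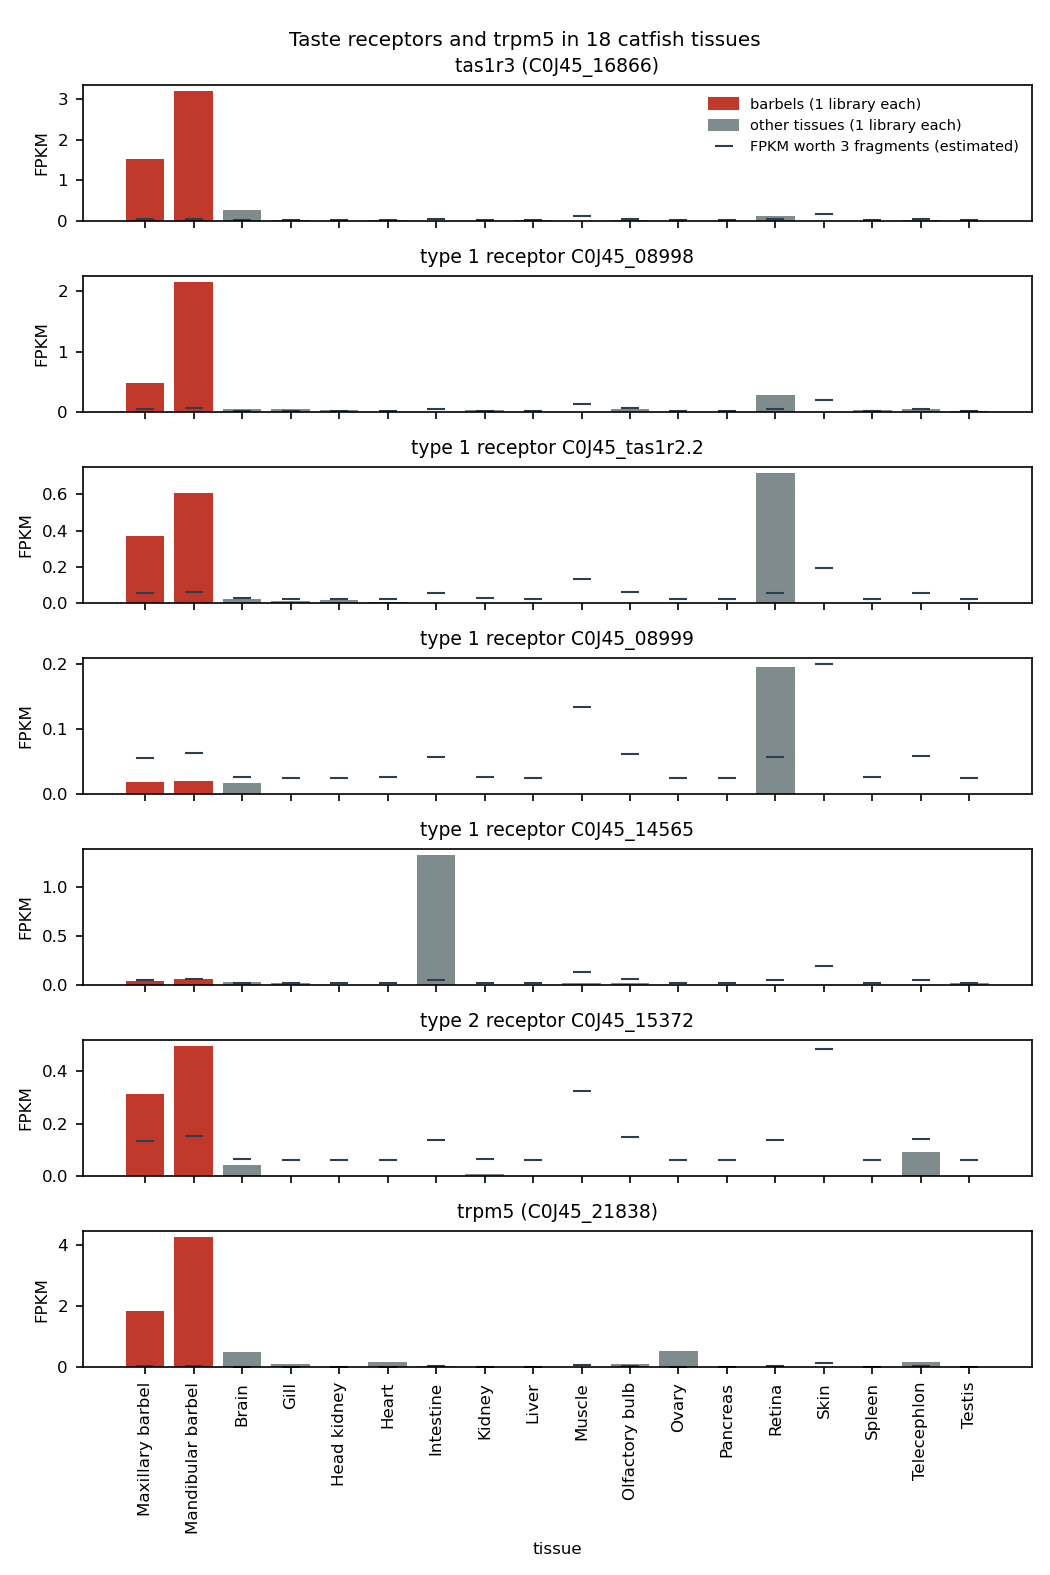
FPKM (linear axes starting at 0, a scale of its own in each panel) of the 7 genes that reached 0.1 FPKM in some library, with 1 bar per library, barbels in red at the left, and dashes at the FPKM worth 3 fragments. The barbels hold the 2 highest bars for tas1r3, C0J45_08998, C0J45_15372 and trpm5, Retina is highest for C0J45_tas1r2.2 and C0J45_08999, and Intestine is highest for C0J45_14565.

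The type 2 receptors were at or near 0 almost everywhere. Of 144 values (8 models in 18 libraries), 11 were above 0, and 2 reached 0.1 FPKM. Both of these belonged to C0J45_15372 (chr17:7876438-7877409, plus strand), which stood at 0.311 FPKM in Maxillary_barbel and 0.494 FPKM in Mandibular_barbel. It had 0.0942 FPKM in Telecephlon, 0.0427 FPKM in Brain and 0.0107 FPKM in Kidney, and was listed at 0 in the other 13 libraries. The barbel values rest on about 6.87 and 9.71 fragments. In Skin, 1 fragment of this short gene would have read 0.162 FPKM, and 3 fragments 0.485 FPKM. A Skin level like that of Maxillary_barbel would thus have rested on fewer than 3 fragments. One like that of Mandibular_barbel would have been only just above 3 fragments.

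Of the other type 2 models, C0J45_03095, C0J45_03096 and C0J45_16591 were listed at 0 in all 18 libraries. C0J45_03099 was at 0.0495 FPKM in Maxillary_barbel and at 0 elsewhere, a level of about 1 fragment. C0J45_03296 reached 0.0898 FPKM in Olfactory_bulb and 0.0738 FPKM in Telecephlon, each under 2 fragments, and was at 0 in both barbels. C0J45_03097 had about 1 fragment in Kidney, and C0J45_03098 less than 1 in Retina. All 8 models have a single coding exon of 849 to 972 bases, against 6 to 8 coding exons in the type 1 genes. Among them, 5 stand together at chr3:21637111-21665321, and C0J45_03296 lies further along the same chromosome. These 5 carry only 2 different protein names, and reads of such copies may not have been told apart. Outside the 8 members, 2 models carry a protein domain note for taste receptor type 2 but not the words in their protein name. Their highest level was 0.202 FPKM, and they are not counted here.

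The channel gene trpm5 followed tas1r3 in the barbels but was less restricted to them. The model lies at chr26:3759383-3772807 on the minus strand, with 23 coding exons. It stood at 1.86 FPKM in Maxillary_barbel and 4.26 FPKM in Mandibular_barbel. Ovary had 0.527 FPKM, Brain 0.493, Telecephlon 0.189, Heart 0.161, Olfactory_bulb 0.119 and Gill 0.113 FPKM, and the other 10 libraries had 0.0502 FPKM or less. Both barbels were above every other tissue, and they held 77.8% of the FPKM summed over the libraries. These levels rest on about 142 fragments in Maxillary_barbel and 291 in Mandibular_barbel, against 88.5 in Ovary and 80.3 in Brain. The place of Ovary depended on scaling: with every library brought to the same upper quartile, trpm5 read 1.71 in Maxillary_barbel and 3.70 in Mandibular_barbel, against 2.01 in Ovary. In Retina and Intestine, where other taste receptors peaked, trpm5 was at 0.0133 and 0.0502 FPKM.

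Of the 14 genes, 11 were above 0 in some tissue. Of these 11, 5 were highest in a barbel, 4 of them in Mandibular_barbel: tas1r3, C0J45_08998, C0J45_15372, trpm5 and, on about 1 fragment, C0J45_03099. Of all genes above 0 in some tissue, 8.77% were highest in a barbel and 5.85% in Mandibular_barbel. A second count asked for an FPKM of at least 0.5 in both barbels and a lower barbel at least 2-fold above the highest other tissue, on FPKM + 0.1. Of the 5 members with 0.5 FPKM in some tissue, 2 met it, against a background of 1.47% (339 of 23054 genes). The 5 that could be tested include those that reached 0.5 FPKM because they are high in a barbel, so their share is a description only. The 2 were tas1r3, with a log2 ratio of 2.12 for the lower barbel over Brain, and trpm5, with 1.64 over Ovary. They are the 2 fixed gene models, and the members were chosen with earlier results of these data known. So the counts of members here are descriptions, and nothing is read from their distance to the backgrounds. The log2 ratio was 0.61 for C0J45_08998 over Retina, -0.80 for C0J45_tas1r2.2 over Retina and -3.28 for C0J45_14565 over Intestine. The type 2 receptor C0J45_15372, below the 0.5 FPKM filter, stood at 1.08 over Telecephlon. With no filter, 3 members were called. The pseudocount understates ratios at these low levels. With a pseudocount of 1, neither tas1r3 (0.99) nor trpm5 (0.90) reached 2-fold. With Mandibular_barbel alone in place of the lower barbel, the log2 ratio was 3.14 for tas1r3, 2.80 for trpm5, 2.55 for C0J45_08998 and -0.20 for C0J45_tas1r2.2, and 3 members were called.

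Skin and Gill, the other body surfaces, had little or none of these genes. The 4 members tested here passed the 0.5 FPKM filter only through a barbel, so nothing is read from their share of calls against the background. Both barbels were at least 2-fold above Skin for 4 of 4, namely tas1r3, C0J45_08998, C0J45_tas1r2.2 and trpm5, and for 51.6% of all genes tested. The median gene was itself higher in the barbels than in Skin, by 1.27 on the log2 scale, and 0.42 with equal upper quartiles. The same 4 genes were at least 2-fold above Gill, where the background was 8.96% and the median log2 ratio of all genes was -0.32. The log2 ratio of the barbel mean over Gill was 4.29 for tas1r3, 3.89 for trpm5, 3.20 for C0J45_08998 and 2.39 for C0J45_tas1r2.2. These are bulk samples, in which fewer cells of a type and less RNA per cell cannot be told apart.

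Between the barbels, tas1r3, trpm5 and C0J45_08998 were lower in Maxillary_barbel than in Mandibular_barbel. C0J45_08998 and C0J45_tas1r2.2 reached the filter of 0.5 FPKM only in Mandibular_barbel, so the share of members called is a description. Of 4 members with 0.5 FPKM in either, 3 were at least 2-fold lower in Maxillary_barbel, against 6.99% of all genes, and 0 were 2-fold higher, against 2.88%. The log2 ratio was -1.95 for C0J45_08998, -1.16 for trpm5, -1.03 for tas1r3 and -0.60 for C0J45_tas1r2.2. The type 2 receptor C0J45_15372, below the filter, stood at -0.53. The median over all 16538 genes tested was -0.12. With equal upper quartiles tas1r3 was at -0.94, short of 2-fold. With a pseudocount of 1 only C0J45_08998 (-1.09) remained 2-fold lower, with trpm5 at -0.88 and tas1r3 at -0.74.

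The same pair of libraries differed in nerve and Schwann cell markers. Of 9 models of that list tested, 7 were at least 2-fold higher in Maxillary_barbel and 0 lower, where 2.88% and 6.99% of all genes were. Myelin protein P0 (C0J45_17751) was at 297.8 FPKM in Maxillary_barbel and 49.2 FPKM in Mandibular_barbel. The 15 models of that list summed to 774 FPKM in Maxillary_barbel and 221 FPKM in Mandibular_barbel, with none at 0 in both. Neuron markers summed to 10.6 FPKM in Maxillary_barbel and 12.5 FPKM in Mandibular_barbel. Most of these sums, 8.79 and 9.40 FPKM, came from the synaptotagmin-1 model C0J45_12314, which was at 0 in Brain and Telecephlon. Gill ionocyte markers summed to 338 and 391 FPKM, against 1167 FPKM in Gill, with 0 models highest in a barbel. Their sum was higher still in Head_kidney (2052 FPKM) and Telecephlon (1844 FPKM), so this list was not particular to Gill. The part of all these markers in the lower levels of the taste genes in Maxillary_barbel was not tested. A difference between 2 single libraries has no replicate check.

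**Figure D2:**
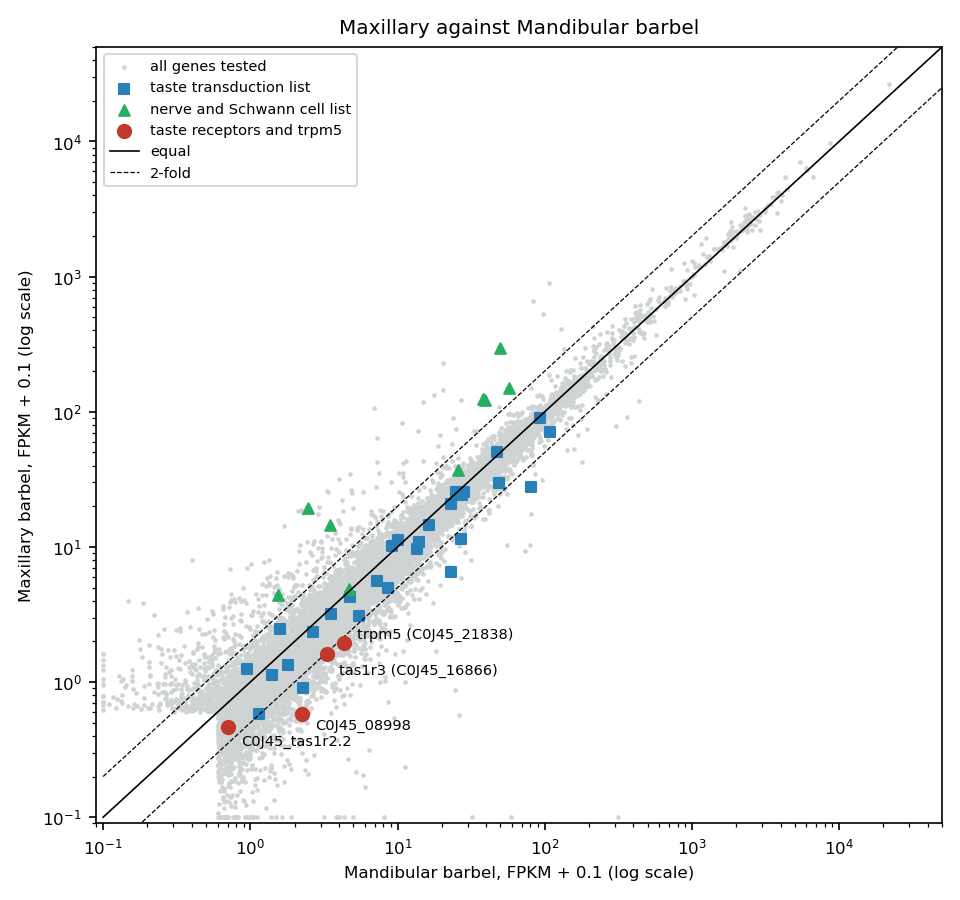
Maxillary_barbel (vertical) against Mandibular_barbel (horizontal) in FPKM + 0.1 on log axes, with a dot for each of the 16538 genes at 0.5 FPKM or more in either, members in red, other taste transduction genes as blue squares and nerve and Schwann cell genes as green triangles. The members fall below the line of equal levels, C0J45_tas1r2.2 within 2-fold, and 7 nerve and Schwann cell genes lie above the upper 2-fold line.

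The rest of the taste transduction pathway was read from a list of its genes, leaving out the members. Of the list's 16 symbols, counted with those of the members, 14 matched. With the members taken out 36 gene models were left, and none was named for phospholipase C beta-2 or gustducin. Of 35 models tested, 4 were 2-fold above every other tissue in both barbels, and 11 of 36 were highest in a barbel, where 1.47% and 8.77% of all genes were. The list's median log2 ratio of the lower barbel over the highest other tissue was -1.26, against -2.42 over all genes. Against Skin 19 of 30 models tested were higher and 3 lower in both barbels, and against Gill 7 of 29 were higher and 4 lower. Over all genes, 51.6% were higher and 9.48% lower against Skin, and 8.96% were higher and 21.9% lower against Gill. Many of the list's models were ryanodine receptor 1 or phospholipase A2 models of several groups, and they weigh on these counts and the median. Among them were C0J45_15112, at 1267 FPKM in Pancreas, and C0J45_22634, which was called.

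Among the G protein subunits gnb3 and gng13a were called, and the others were not. The beta subunit gene gnb3 (C0J45_03826), whose product is also used in taste and cone cells, was at 11.3 FPKM in Maxillary_barbel and 26.7 FPKM in Mandibular_barbel. Its level was at most 0.268 FPKM elsewhere, with Skin at 0. The gamma subunit gene gng13a (C0J45_21003) was at 27.5 FPKM in Maxillary_barbel and 80.3 FPKM in Mandibular_barbel, against 4.13 FPKM in Olfactory_bulb, the next tissue. Levels of both were above those of the receptors. The second gng13 model, C0J45_13310, was instead at 0.483 FPKM in Maxillary_barbel, against 86.3 FPKM in Telecephlon. The alpha subunit gene gna14 (C0J45_15250) was at 6.47 FPKM in Maxillary_barbel and 23.0 FPKM in Mandibular_barbel. Intestine, with 5.08 FPKM, kept it from the call. The second gna14 model, C0J45_21162, was at 1.03 and 1.31 FPKM in the barbels and 14.5 FPKM in Gill. The models of gnai1, gnai2 and gnb1, subunits in wide use, were all highest outside the barbels, with log2 ratios from -5.20 (gnb1 C0J45_09058) to -0.37 (gnai1 C0J45_16020).

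Downstream genes were less distinct. Itpr3 (C0J45_15581), the calcium release channel of taste cells, was highest in the barbels at 10.8 and 13.9 FPKM, but Gill had 8.90 and Skin 8.67 FPKM. The ATP release channel gene calhm1 had a model (C0J45_01460) at 1.23 FPKM in Maxillary_barbel and 1.71 FPKM in Mandibular_barbel that was called, with Gill next at 0.425 FPKM. Its second model, C0J45_20755, was at 2.39 and 1.49 FPKM, against 1.52 FPKM in Spleen. Calhm3 (C0J45_01459), the partner of calhm1, was at 0.809 FPKM in Maxillary_barbel and 2.19 FPKM in Mandibular_barbel, with 1.34 FPKM in Kidney. Also called was a group 3 secretory phospholipase A2-like model, C0J45_22634, at 2.25 and 2.56 FPKM. Of 28 models of the list tested, 4 (gnb3, gng13a, gna14 and calhm3) were at least 2-fold lower in Maxillary_barbel than in Mandibular_barbel, and 0 were higher. Over all genes, 6.99% were lower and 2.88% higher.

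**Figure D3:**
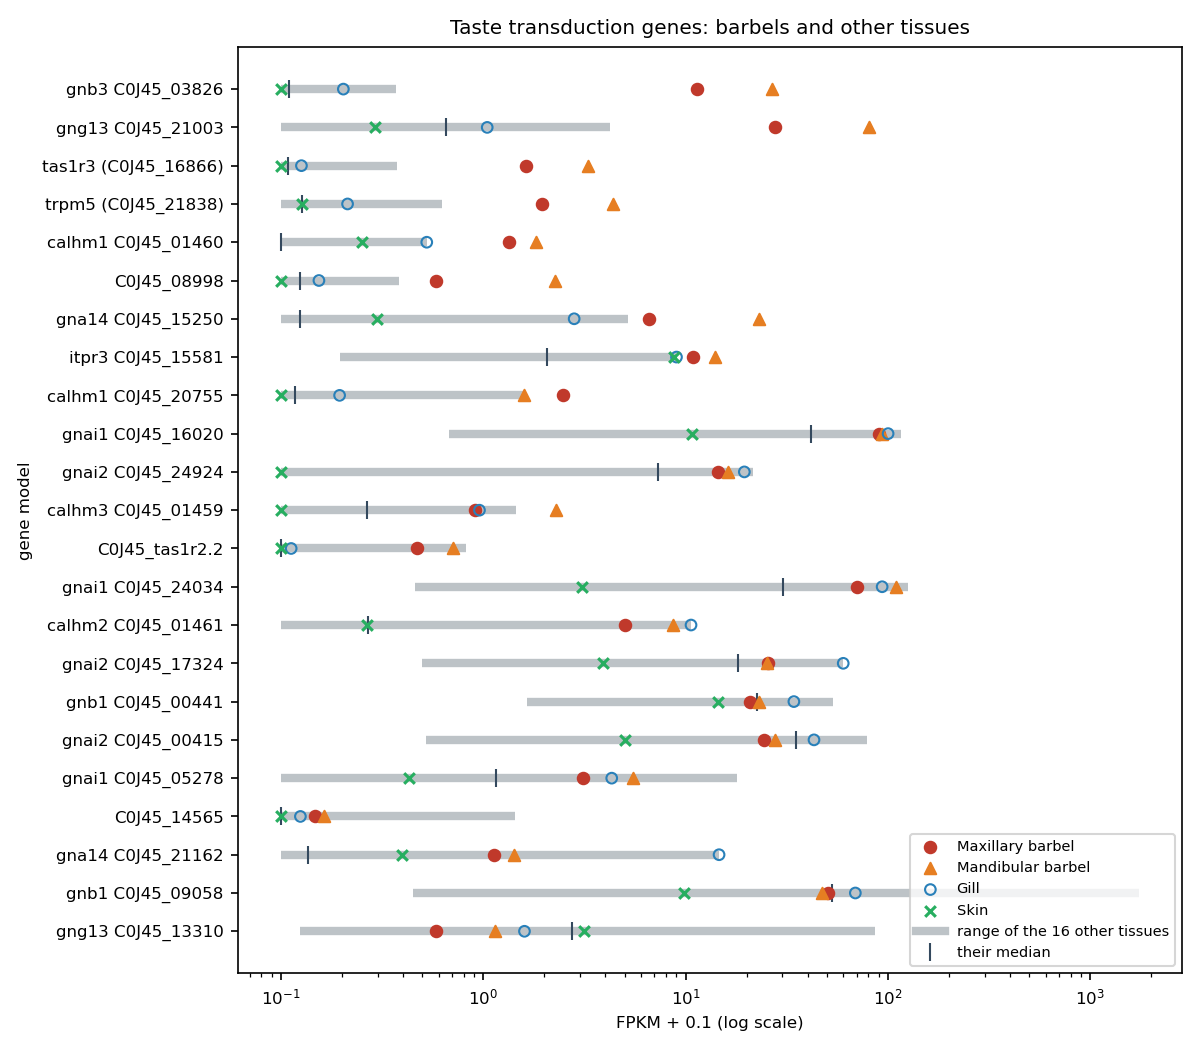
FPKM + 0.1 on a log axis for the 23 transduction gene models (members included, phospholipases A2 and ryanodine receptors left out) with 0.5 FPKM in some library, ordered by the lower barbel over the highest other tissue. Both barbels lie right of the grey bar, the range of the 16 other tissues, for gnb3, gng13 C0J45_21003, tas1r3, trpm5, calhm1 C0J45_01460, C0J45_08998, gna14 C0J45_15250 and itpr3, and within it for C0J45_tas1r2.2 and C0J45_14565.

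In Retina and Intestine gnb3, gng13a, tas1r3 and trpm5 were low, while other subunits were not. Retina had gnb3 at 0.189 FPKM, gng13a at 0.749 FPKM, tas1r3 at 0.118 FPKM and trpm5 at 0.0133 FPKM, beside C0J45_tas1r2.2 at 0.717 FPKM. Intestine had gna14 at 5.08 FPKM but gnb3 at 0.0419 FPKM and gng13a at 0.0624 FPKM, with tas1r3 at 0, beside C0J45_14565 at 1.33 FPKM. The second gng13 model, C0J45_13310, was at 52.9 FPKM in Retina and 5.61 FPKM in Intestine. Itpr3 was at 5.88 FPKM in Intestine, and gnb1 C0J45_09058 at 1740 FPKM in Retina. Retinal photoreceptor markers summed to 38271 FPKM in Retina and to under 1 FPKM in each barbel.

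A phospholipase C model and others outside the list were picked after their values were seen. C0J45_07766, named phospholipase C beta-3, was at 2.94 FPKM in Maxillary_barbel and 8.81 FPKM in Mandibular_barbel, with Brain next at 2.04 FPKM. Of the models with the same protein name, C0J45_06262 was at 41.3 and 47.0 FPKM in the barbels and 36.8 FPKM in Gill. C0J45_08152 was at 0.0673 and 0.0744 FPKM in the barbels and 116 FPKM in Olfactory_bulb. A polycystic kidney disease protein 1-like 2 model, C0J45_08891, was at 4.85 and 14.6 FPKM in the barbels and at most 0.0682 FPKM elsewhere. Of the models with that name, C0J45_08931 was at 0.282 and 0.841 FPKM in the barbels, with 0.158 FPKM in Brain, and was not called. C0J45_08842 was at 0 and 0.0123 FPKM in the barbels and 0.741 FPKM in Head_kidney.

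Among the 29 TRP channel models, trpm5 was the only one with a barbel as its highest tissue. Of all genes above 0 in some tissue, 8.77% had a barbel as highest, so a count of 1 in 29 is near the background. Since trpm5 was a fixed gene model, nothing is read from its being that 1. TRP channels are cation channels for heat, touch, chemicals and calcium uptake. The list of transient receptor potential names held 29 models besides trpm5 (28 channels and a channel-associated protein). Of the 27 tested, 0 were 2-fold above every other tissue in both barbels, near the 1.47% of all genes, and their median log2 ratio was -3.19, against -2.42 over all genes. The closest relative in function, trpm4, is also opened by calcium. Its highest model, C0J45_12695, was at 35.6 FPKM in Maxillary_barbel and 36.6 FPKM in Mandibular_barbel, against 36.9 FPKM in Gill and 9.75 FPKM in Skin. So trpm4 stood above trpm5 in the barbels but was as high in Gill. The heat-sensing channel trpv1 was at 2.04 and 4.54 FPKM in the barbels, with 7.62 FPKM in Spleen.

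**Figure D4:**
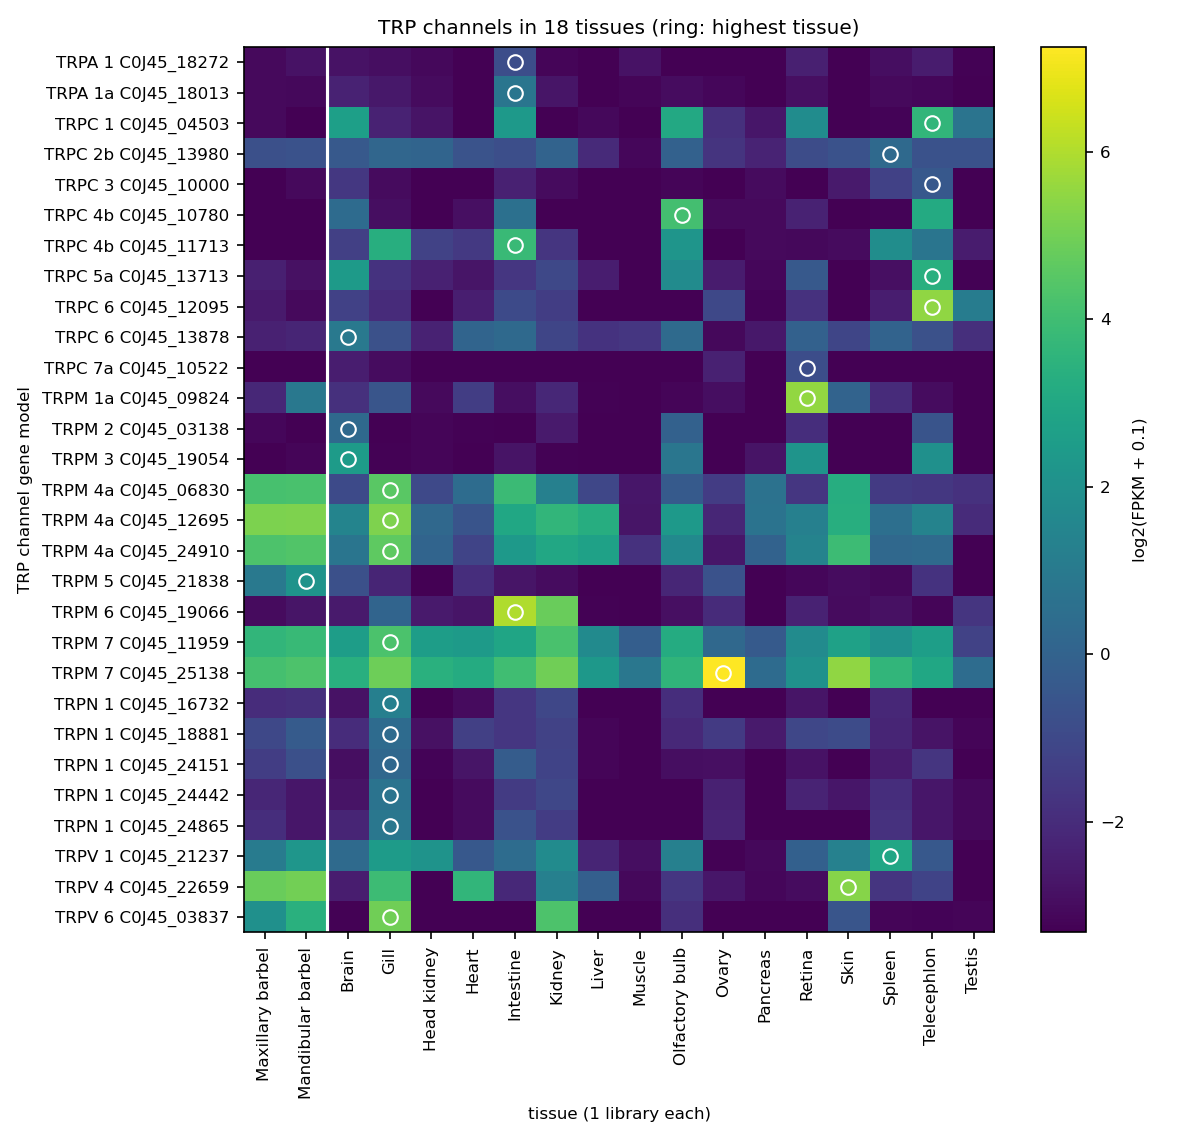
Heat map of log2(FPKM + 0.1) for 29 TRP channel models (rows) in 18 libraries (columns, barbels left of the white line), with a ring at each row's highest tissue. Only the TRPM 5 row has its ring in a barbel.

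Of the 45 models for genes of the synapse-bearing, sour-sensing taste cells, 5 were highest in a barbel, near the 8.77% of all genes. An entpd2 model (C0J45_22620) was 1 of the 5, at 15.0 FPKM in Maxillary_barbel and 18.6 FPKM in Mandibular_barbel, against 8.29 FPKM in Skin. Of 44 models tested, 1 was called, near the background of 1.47%. It was a synaptotagmin-1 model (C0J45_12314, a calcium sensor of vesicle release) at 8.79 FPKM in Maxillary_barbel and 9.40 FPKM in Mandibular_barbel, with 3.37 FPKM in Retina. A second synaptotagmin-1 model, C0J45_15981, was at 0.111 and 0.626 FPKM in the barbels, against 151 FPKM in Telecephlon. The sour-cell channel gene pkd2l1 (C0J45_01464) was at 0.110 and 0.757 FPKM, with 0.325 FPKM in Retina. The proton channel gene otop1 (C0J45_13336) was at 0 FPKM in Maxillary_barbel and 0.0273 FPKM in Mandibular_barbel. The list's median log2 ratio to the highest other tissue, -6.34, was below that of all genes. The list held genes high in neural tissue, such as snap25 C0J45_19735 at 1302 FPKM in Telecephlon. It also held several models named for the same calcium channel, cacna1a, and both weigh on this median and on the share called. Of 22 tested, 12 were at least 2-fold lower in Maxillary_barbel than in Mandibular_barbel and 0 higher, where 6.99% and 2.88% of all genes were. The serotonin enzyme gene tph1b (C0J45_21877) was one of them, at 0.639 FPKM in Maxillary_barbel and 3.58 FPKM in Mandibular_barbel.

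Taste bud development genes held 30 models, 0 of them called against every other tissue. With 1.47% of all genes called, a count of 0 in this and the next lists is near the background. Sox2 (C0J45_08694), which taste bud progenitors need, came nearest with 80.3 FPKM in Maxillary_barbel and 92.8 FPKM in Mandibular_barbel, against 52.2 FPKM in Olfactory_bulb and 6.33 FPKM in Skin. Pou2f3 (C0J45_21466), needed to make type II taste cells and solitary chemosensory cells in mice, was at 5.57 and 11.7 FPKM in the barbels and higher in Gill, at 19.7 FPKM. Against Gill 3 of 26 models were higher and 11 lower in both barbels, where 8.96% and 21.9% of all genes were. The list of solitary chemosensory and tuft cell genes had 0 of 14 called. Its median log2 ratio of the lower barbel over the highest other tissue was -3.46, against -2.42 over all genes. Of its 14 models 1 was highest in a barbel, where 8.77% of all genes were. That 1 was avil (C0J45_16813), an actin-binding protein gene, at 4.45 and 11.5 FPKM in the barbels, with 7.85 FPKM in Gill. Pou2f3, highest in Gill, is also on this list.

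Taste nerve receptors were also not called (0 of 8 tested). The ATP receptor gene p2rx3 (C0J45_01296) was at 2.96 FPKM in Maxillary_barbel and 2.87 FPKM in Mandibular_barbel, against 13.4 FPKM in Olfactory_bulb. Class C receptors, the wider family of the type 1 receptors, had 0 of 25 called. In the barbels 28 of these 32 models were under 1 FPKM in both, 15 of them at 0 in both. The exceptions were 3 gprc6a models, for receptors of basic amino acids, and a gprc5 model. Of all 25390 genes, 56.5% reached 1 FPKM in Maxillary_barbel and 58.2% in Mandibular_barbel, while 4134 and 3907 were at 0. The highest gprc6a model, C0J45_20323, was at 5.41 FPKM in Maxillary_barbel and 7.43 FPKM in Mandibular_barbel, against 8.37 FPKM in Gill.

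Likeness of pattern was measured as Pearson's r of log2(FPKM + 0.1) over the 18 tissues, among genes with 1 FPKM in some tissue. The points share their libraries and depths, and a single high tissue or the pair of barbels can set such an r, so it is a description. With Spearman's rho 0 of the 5 nearest genes were kept for any of the 5 members compared, so the genes named depend on the measure. For C0J45_08998 the nearest gene was tas1r3 (r = 0.93), then gnb3 (r = 0.92). For tas1r3 the nearest were a C-type mannose receptor 2-like gene (C0J45_02534, r = 0.96) and Wnt-3 (C0J45_07438, r = 0.96). For trpm5 they were secreted frizzled-related protein 2 (C0J45_23003, r = 0.91) and interferon-induced protein 44 (C0J45_20550, r = 0.90), with tas1r3 also among the 5 nearest (r = 0.88). The type 2 receptor C0J45_15372 correlated with tas1r3 at 0.93 and with trpm5 at 0.88.

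C0J45_tas1r2.2 correlated with C0J45_08998 at 0.89 and with tas1r3 at 0.80. It was most like a serotonin receptor 3A-like gene (C0J45_20631, r = 0.96), at 0.864 FPKM in Maxillary_barbel and 2.33 FPKM in Mandibular_barbel, against 19.0 FPKM in Retina. Tph1b, the enzyme gene of serotonin synthesis, was also among its 5 nearest (r = 0.94). C0J45_14565 was most like aquaporin-8 (C0J45_07050, r = 0.99), a water channel gene at 0.177 and 0.315 FPKM in the barbels and 277 FPKM in Intestine. Its r with tas1r3 was 0.07.

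The nearest annotated genes beside tas1r3, the chromosome 9 tandem and trpm5 had other levels across the tissues. The gene after tas1r3, a coiled-coil domain gene (C0J45_16867, 1678 bases away), was at 0.0275 FPKM in Maxillary_barbel and 0.122 FPKM in Mandibular_barbel. The gene before it, ERBB receptor feedback inhibitor 1 (C0J45_16865, 52735 bases away), was at 5.83 and 9.60 FPKM in the barbels and 17.7 FPKM in Liver. Ahead of the chromosome 9 tandem lies a mitochondrial NADH dehydrogenase subunit gene (C0J45_08997) at 49.7 and 61.9 FPKM in the barbels and 59.0 FPKM in Skin. After the tandem, a hypothetical protein gene (C0J45_09000) was at 0 in all libraries. The neighbours of trpm5 were the signalling gene TNF receptor-associated factor 6 (C0J45_21837) at 12.3 FPKM in Maxillary_barbel, with 6.16 FPKM in Skin, and the cell cycle inhibitor gene of C0J45_21839 at 7.84 and 4.26 FPKM, with 82.7 FPKM in Gill.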

How the data were processed

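Polyadenylated RNA of 18 tissues was sequenced with paired ends, 1 library per tissue, per the labels' protocols. The authors deposited FPKM per gene model, and the submitters' processing notes name StringTie 1.3.4d; which aligner and build were used is not given in the sources used here. Coordinates are those of the deposited annotation. No sequence is shown.

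Members were found by locus tag or by "taste receptor" in the protein name. The members and gene lists were chosen with earlier results of these data known, and the protein names that stand for each list symbol were written after the tables were opened. Ratios are log2(FPKM + 0.1). A gene was tested if it had 0.5 FPKM in a tissue compared, and was called at 2-fold (in both barbels against other tissues; above every other tissue, both barbels also had to reach 0.5 FPKM). Named genes are all members, genes of the fixed lists, the nearest annotated gene on each side of a member and, per member with at least 0.5 FPKM in some tissue, the 5 genes with the highest Pearson r among those reaching 1 FPKM. Single list genes were picked with their values known. Depth was read from the smallest step of FPKM times coding length. Of low values, 13.2% to 27.8% were within 0.02 steps of a whole multiple, so counts were not recovered, and floors cover counting error only. Scripts (Python 3.11.15, numpy 2.4.6, pandas 2.3.3, matplotlib 3.10.9) were tested on simulated data. Alternatives were a pseudocount of 1, no filter, a filter at 1 FPKM, a 4-fold threshold, equal summed FPKM and equal upper quartile, either barbel alone, leaving out Skin, Spearman's rho and the highest model of each symbol.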

Additional observations from a re-analysis of the deposited data

How the results depend on the processing

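No paired analysis was possible because each tissue had 1 library, which also left no replicate to leave out. Counts are read as moved when they changed by over 1.5 times. A pseudocount of 1 left 0 of 3 members with 2-fold ratios over the highest other tissue and 0 of the 2 called, 2 of 4 above Skin, 2 of 4 above Gill and 1 of 3 lower in Maxillary_barbel. It moved the genes above Gill to 1065 from 1618, those higher in Maxillary_barbel to 222 from 476, those lower to 347 from 1156, the total to 569 from 1632, and the list genes called to 3 from 5. With equal upper quartiles the log2 ratio of trpm5 turned to -0.22 from 1.64 and 1 member was called. Genes above Skin moved to 5983 from 9016 and those below to 3496 from 1656. A 4-fold threshold gave 132 genes above every other tissue (339 at 2-fold) with 1 member. It gave 5127 above and 912 below Skin, 678 above and 1763 below Gill (3950 at 2-fold), and 154 higher and 186 lower in Maxillary_barbel, 340 in all, with 0 members lower. With no filter 787 were higher and 1743 lower, 2530 in all. Taking the highest model of each symbol left 1 list gene called. With Spearman's rho, 0 of 5 likeness partners were kept for each member compared. The cause of these moves was not tested. Among the type 2 members, all but C0J45_15372 rest on fewer than 2 fragments in any library. The part of depth in this was not tested.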
